A study of Mus musculus with 6 samples.

Results

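The pentose phosphate and NADPH-producing enzymes are genes of central carbon metabolism, 10 of which were chosen by name from the 43346 genes of the deposited count table. Described are 9 of them: Pgls, Pgd, Rpia, Rpe, Tkt, Taldo1, Me1, Idh1 and Idh2. All 9 were found in the table, and all 9 passed the filter on low counts. The samples were MEFs (mouse embryonic fibroblasts), primary C57BL/6 cells used at passage 9; such cells are taken from embryos and divide for a limited number of passages. One group of 3 libraries came from cells given 3 µM erastin and the other group of 3 from cells given the solvent DMSO, both for 24 h. Erastin inhibits the antiporter that imports cystine in exchange for glutamate, and is used to induce ferroptosis, in which cells die from peroxidation of their lipids in the presence of iron. Both groups grew in a medium with fetal bovine serum and 2-mercaptoethanol, a reducing agent. The labels state that the experiment was done in triplicate but not whether the 3 libraries of a group came from separate embryos or cultures, so p-values measure the spread between these libraries, which may be technical.

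The pentose phosphate pathway branches from glycolysis at glucose 6-phosphate. Its oxidative branch yields NADPH and ribulose 5-phosphate, and its reversible non-oxidative branch exchanges sugar phosphates with glycolysis and supplies ribose for nucleotides. Malic enzyme and the NADP-dependent isocitrate dehydrogenases are further sources of NADPH, the electron donor that glutathione reductase and thioredoxin reductase need to keep thiols reduced and that fatty acid and sterol synthesis consume. Several genes of the set are known targets of NRF2, a transcription factor activated by oxidative and electrophilic stress.

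The 9 genes did not move one way. With erastin, Taldo1, Rpe, Me1 and Pgd were higher and Idh2, Tkt, Idh1 and Pgls were lower, while Rpia did not pass. The call was an adjusted p-value under 0.05 in edgeR's quasi-likelihood test, with Benjamini-Hochberg adjustment over the 14000 genes tested. By this rule 4 of the 9 genes were higher and 4 lower, whereas 43.1% of all genes tested passed, 21.6% being higher and 21.5% lower. The median log2 fold change of the 9 genes, 0.323, is the value of Rpia alone, which ran from 0.159 to 0.617 over 15 alternative analyses, and that of all genes tested was -0.0014. In 8 of the 9 genes the 3 erastin libraries lay wholly above or wholly below the 3 DMSO libraries, as they did in 52.5% of all genes tested (26.7% above and 25.9% below). In both branches of the pathway, enzymes went opposite ways: Pgd rose beside lower Pgls, and Taldo1 rose beside lower Tkt. In counts-per-million units (CPM), with library sizes scaled by the trimmed mean of M-values (TMM), the 9 genes together made 855 to 871 CPM in the DMSO libraries, against 775 to 846 CPM with erastin. Reads rise with the length of a gene, so this sum gives no direction for the set per length.

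**Figure D1:**
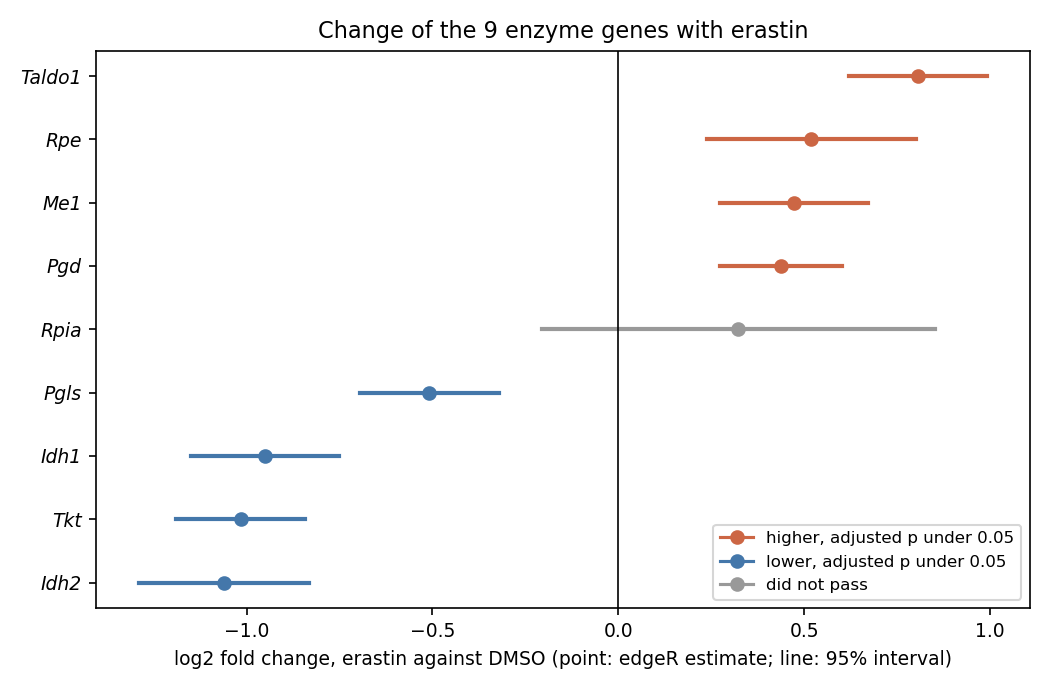
Log2 fold change of the 9 enzyme genes, erastin against DMSO (horizontal axis); points are edgeR estimates and lines their 95% intervals, with 3 libraries per group. The intervals of 4 genes lie above 0 and those of 4 below 0, and the interval of Rpia spans 0.

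The libraries held 13333911 to 20509970 counts, and a floor of 3 counts came to 0.14 to 0.234 CPM. Libraries were made by PCR with no molecular identifiers described, so such floors cover counting error only. The labelled cell type was checked against its markers. All 10 fibroblast markers were measured, at a summed 35400 to 38500 CPM in DMSO against 25500 to 26900 CPM with erastin, and 8 of them were lower with erastin, among them Col1a1 and Pdgfra, while Fn1 and Dcn did not pass. Of 6 leukocyte and macrophage markers none passed (summed 22.7 to 43.3 CPM in DMSO and 27.1 to 56.8 CPM in erastin; edgeR unadjusted p-values of 0.024 for Cd68 and 0.0257 for Lyz2). The 5 epithelial markers summed to at most 1.38 CPM in any library. Of 5 endothelial markers Kdr and Tek were higher with erastin (summed list 4.71 to 7.1 CPM in DMSO, 13.3 to 16.6 CPM in erastin), while the defining Pecam1, Cdh5 and Tie1 stayed at or under 0.778 CPM. Of the muscle and neural markers Acta1 (51.1 to 61.9 CPM in DMSO, 17.1 to 22.1 CPM with erastin) and Tubb3 (56 to 80.9 and 36.8 to 45.3 CPM) were lower. Myod1, Myog, Ckm, Snap25, Rbfox3 and Sox10 stayed at or under 0.467 CPM. Counts of mitochondrially encoded genes made 0.623% to 0.728% of the DMSO and 0.968% to 1.1% of the erastin libraries. The part of these shifts in the results for the enzyme genes was not tested.

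To show the start regions of genes that moved opposite ways, a stretch from 120 bases before to 10 bases after the RefSeq start (GRCm38.p6) is printed for the 4 higher genes and for Tkt, 5′ to 3′ on the strand of the gene. Capitals mark matches to the core of the antioxidant response element, bound by NRF2 and its partner small MAF proteins (TGACNNNGC, in Me1), or to a CCAAT box (in Pgd and Taldo1), each on either strand.
Pgd, chr4:149166696-149166825, minus strand: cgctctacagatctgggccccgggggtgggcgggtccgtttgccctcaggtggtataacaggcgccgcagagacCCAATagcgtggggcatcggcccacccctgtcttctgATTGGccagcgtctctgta
Taldo1, chr7:141392040-141392169, plus strand: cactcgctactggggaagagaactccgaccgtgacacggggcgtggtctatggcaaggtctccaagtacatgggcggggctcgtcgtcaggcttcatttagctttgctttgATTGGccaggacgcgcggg
Me1, chr9:86695905-86696034, minus strand: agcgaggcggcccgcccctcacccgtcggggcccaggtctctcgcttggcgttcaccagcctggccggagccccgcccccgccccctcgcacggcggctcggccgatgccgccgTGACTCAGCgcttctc
Rpe, chr1:66700711-66700840, plus strand: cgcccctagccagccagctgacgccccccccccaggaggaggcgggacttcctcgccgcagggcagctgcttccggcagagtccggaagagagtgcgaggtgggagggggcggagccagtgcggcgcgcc
Tkt, chr14:30549011-30549140, plus strand: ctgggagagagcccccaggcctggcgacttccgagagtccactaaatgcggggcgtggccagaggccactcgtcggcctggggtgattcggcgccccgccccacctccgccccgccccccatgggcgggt

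Counted from the start, with -1 the last base before it and 1 the first base of the transcript, the antioxidant response element core matched Me1 at -6 to 3 on the gene's own strand. A second RefSeq start of Pgd, which lies within the gene, had a match at 4 to 12, inside the transcript. The bases before that start end in a run of T and then CAG, as introns do. It may therefore be an exon edge and not a promoter. All 9 genes had a RefSeq window of 250 bases before to 50 bases after a start, Pgd, Me1 and Idh1 had a second one, and 2 of these 12 windows held this core, against 12.4% of all 32851 windows. Only Me1 held the core at its first start. Me1 and Pgd were both higher with erastin, but 2 matches near the share of all windows tell nothing about direction. The core was not found in the windows of Taldo1 and Rpe, also higher, or of the 4 lower genes. CCAAT was present in 6 of the 12 windows and in 37.4% of all windows. Of the 6 genes that hold it, Pgd, Taldo1, Rpe and Me1 were higher and Idh1 and Idh2 lower. In Me1 it lay only in the window of the second start, at -208 to -204, and in Rpe at 10 to 14, inside the transcript. The sterol regulatory element TCACNCCAC, the C/EBP-ATF response element TGATGNAAN and the E-box CACGTG matched 0 of the 12 windows, against 1.24%, 3.95% and 7.15% of all windows. A match is a run of letters and not a binding site, and the windows are short.

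In the oxidative branch, Pgls (ENSMUSG00000031807.6, chr8:71592176-71601092) encodes 6-phosphogluconolactonase, which opens the lactone ring of its substrate to give 6-phosphogluconate. It was at 94.8, 100 and 102 CPM in DMSO and at 68.2, 75.9 and 64.9 CPM with erastin, in replicate order, with a clear gap between the groups. The log2 fold change was -0.51 with an SE of 0.0879 (edgeR adjusted p = 0.00028), a level 1.42-fold lower. Pgd (ENSMUSG00000028961.11, chr4:149149991-149166771), 6-phosphogluconate dehydrogenase, makes NADPH from 6-phosphogluconate and releases carbon dioxide. Its libraries stood at 147, 136 and 140 CPM in DMSO and at 193, 202 and 179 CPM with erastin, so that here the erastin libraries were all above. Pgd rose 1.36-fold (log2 fold change 0.44 with an SE of 0.0768; edgeR adjusted p = 0.000308). Consecutive enzymes of the NADPH-making branch thus changed in opposite directions within the same libraries.

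In the non-oxidative branch, ribulose 5-phosphate is turned into ribose 5-phosphate by Rpia and into xylulose 5-phosphate by Rpe. Rpia (ENSMUSG00000053604.5, chr6:70765720-70792232), ribose-5-phosphate isomerase, was the least counted of the 9 genes, with 91 to 225 reads per library. It was at 6.88, 6.15 and 11.1 CPM in DMSO and at 10.5, 8.14 and 11.3 CPM with erastin. The groups overlapped through DMSO replicate 3, and the difference did not pass (log2 fold change 0.32, 95% interval -0.206 to 0.852, edgeR adjusted p = 0.317). Without DMSO replicate 3 the log2 fold change of Rpia was 0.617 with an edgeR adjusted p of 0.0495, so 1 library decided the call. Rpe (ENSMUSG00000026005.11, chr1:66700831-66719805), ribulose-5-phosphate epimerase, was at 45.1, 47.9 and 32.8 CPM in DMSO and at 53.9, 65.8 and 61.2 CPM with erastin. All 3 erastin libraries were above, with DMSO replicate 3 lowest. The rise was 1.43-fold (log2 fold change 0.52 with an SE of 0.131; edgeR adjusted p = 0.00492). After correction for trends of fold change with GC content and length it did not pass (log2 fold change 0.283, edgeR adjusted p = 0.0788). Its longest transcript holds 39.2% G and C, the lowest share of the 9 genes. Rpe shares 558 bases of its longest transcript with Kansl1l on the opposite strand, which had 133 to 268 reads per library and did not pass (edgeR adjusted p = 0.648; chosen after its values were seen). Whether counting used the strand is not given in the sources used here.

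Tkt and Taldo1 carry out the carbon exchanges that link the pathway back to glycolysis, and their changes lay far apart. Tkt (ENSMUSG00000021957.6, chr14:30548359-30574720) encodes transketolase, which moves units of a pair of carbons and uses thiamine diphosphate. It stood at 240, 255 and 241 CPM in DMSO and at 128, 127 and 109 CPM with erastin. No erastin library came near a DMSO library, and the level was 2.02-fold lower (log2 fold change -1.02 with an SE of 0.0804; edgeR adjusted p = 1.67e-07). Taldo1 (ENSMUSG00000025503.4, chr7:141392199-141402968) encodes transaldolase, which moves units of a trio of carbons. It was at 98.3, 89.1 and 104 CPM in DMSO and at 160, 185 and 163 CPM with erastin. All erastin libraries were above every DMSO library, a 1.75-fold rise (log2 fold change 0.81 with an SE of 0.0873; edgeR adjusted p = 3.5e-06). Among all genes tested, the log2 fold change of Tkt lay at the 8.69th percentile and that of Taldo1 at the 89.9th. A processed pseudogene of Taldo1, Gm17823, matches 923 bases at 94.7% identity and has no row in the table, so reads from it, if any, could have been counted elsewhere.

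**Figure D2:**
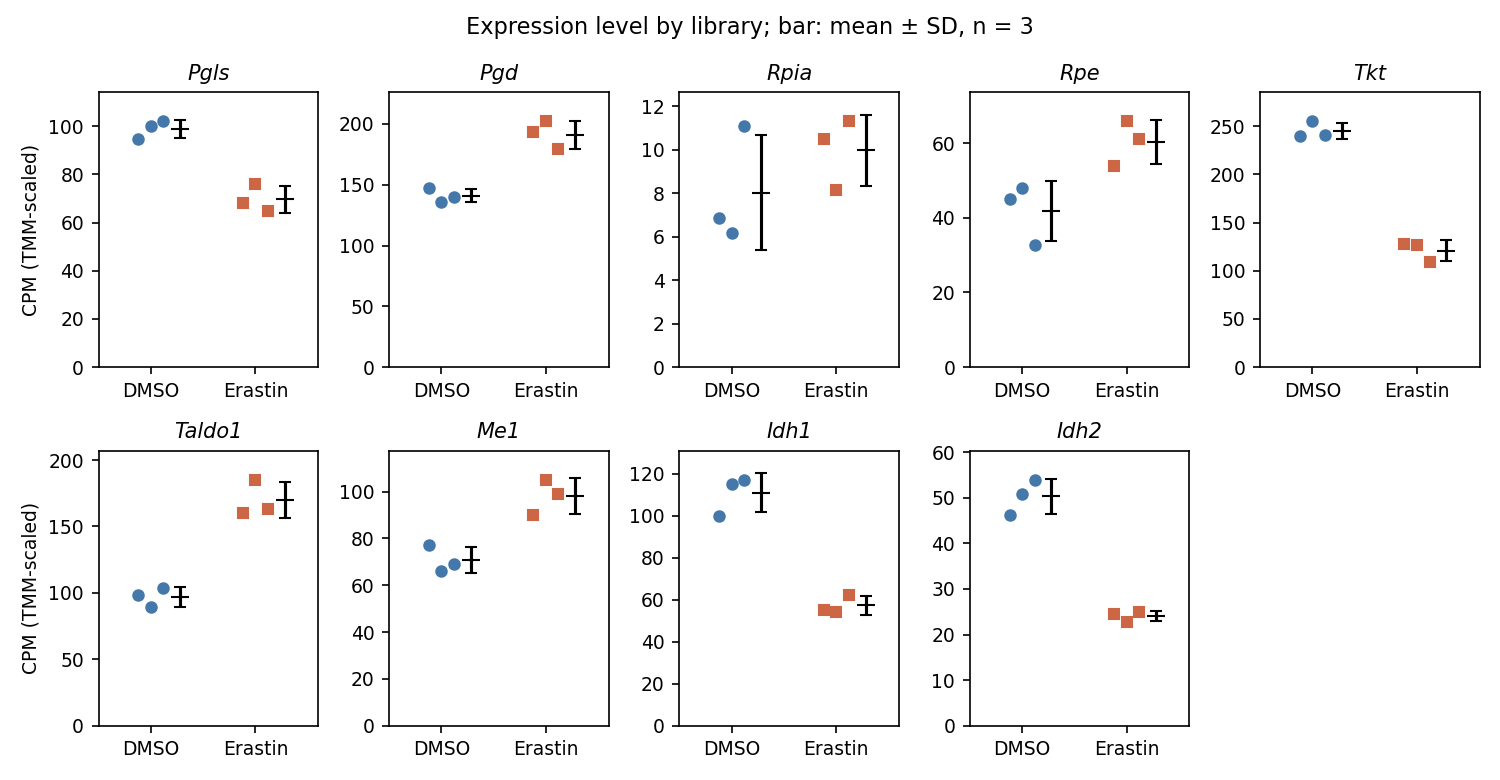
Expression of each of the 9 enzyme genes by library, in CPM (TMM-scaled; vertical axes start at 0 and differ between panels). Points are the 3 libraries of a group and bars the mean ± SD. With erastin Tkt, Idh1 and Idh2 stand 2.02-, 1.93- and 2.09-fold lower and Taldo1 1.75-fold higher, and of the 9 genes only Rpia has groups that overlap.

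Outside the pathway, the 3 other NADPH sources of the set also split. Me1 (ENSMUSG00000032418.11, chr9:86581371-86695953) encodes the cytosolic malic enzyme, which makes pyruvate and NADPH from malate. It was at 77.1, 66 and 69.3 CPM in DMSO and at 89.9, 105 and 98.9 CPM with erastin, all 3 erastin libraries being higher. The rise was 1.39-fold (log2 fold change 0.47 with an SE of 0.0932; edgeR adjusted p = 0.000837). Copies of Me1 sequence lie in Gm7049 and Gm48795, which have no row in the table, and in Gm7329, which had 0 to 4 reads. Of the other malic enzyme genes, Me2 was at 36.3 to 38.6 CPM in DMSO and 33.5 to 40.2 CPM with erastin, and Me3 at 5.38 to 8.17 and 5.81 to 7.88 CPM. Both encode mitochondrial enzymes, and neither passed (log2 fold changes -0.04 and 0.07, 95% intervals -0.276 to 0.19 and -0.458 to 0.607, edgeR adjusted p = 0.783 and 0.837).

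Idh1 and Idh2 encode the NADP-dependent isocitrate dehydrogenases of the cytosol and of mitochondria, which turn isocitrate into 2-oxoglutarate. Idh1 (ENSMUSG00000025950.12, chr1:65158616-65186500) stood at 100, 115 and 117 CPM in DMSO and at 55.1, 54.3 and 62.4 CPM with erastin. Idh2 (ENSMUSG00000030541.12, chr7:80094846-80115392) stood at 46.2, 50.9 and 53.9 CPM in DMSO and at 24.5, 22.8 and 25 CPM with erastin. Both genes had wide gaps between the groups and fell by like amounts, Idh1 1.93-fold (log2 fold change -0.95 with an SE of 0.0936; edgeR adjusted p = 1.36e-06) and Idh2 2.09-fold (log2 fold change -1.06 with an SE of 0.108; edgeR adjusted p = 1.82e-06). In bulk RNA, fewer cells that express a gene and less of its RNA per cell cannot be told apart, here and for the other falls.

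Ratios within a library do not depend on the scaling between libraries. Per length of the gene's exons, Taldo1 stood at 1.34 times Tkt in DMSO and at 4.74 times in erastin libraries (log2 ratios of 0.42 ± 0.16 and 2.25 ± 0.14, SD, n = 3 each). The lowest erastin log2 ratio, 2.09, was far above the highest in DMSO, 0.55. Pgd moved from 0.833 to 1.61 times Pgls (log2 ratios -0.26 ± 0.1 and 0.68 ± 0.045), and Me1 from 0.46 to 1.23 times Idh1 (-1.12 ± 0.23 and 0.3 ± 0.16). In both pairs the minor partner in every DMSO library was the major one in every erastin library. Which partner is the major one depends on the length used: per length of the longest transcript, Pgd was above Pgls already in DMSO (55.3 and 52.5 in transcripts-per-million units, TPM) and Taldo1 stood at 102 TPM beside 108 TPM of Tkt. The shift of a ratio between groups does not depend on length. Idh1 kept close to its mitochondrial counterpart, at 2.05 times Idh2 in DMSO and 2.22 times with erastin (log2 ratios 1.04 ± 0.039 and 1.15 ± 0.075), and the ranges of this ratio met, at 1.01 to 1.08 and 1.07 to 1.22 on the log2 scale. Such ratios describe pairs picked with the changes of the genes known, and carry no test.

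**Figure D3:**
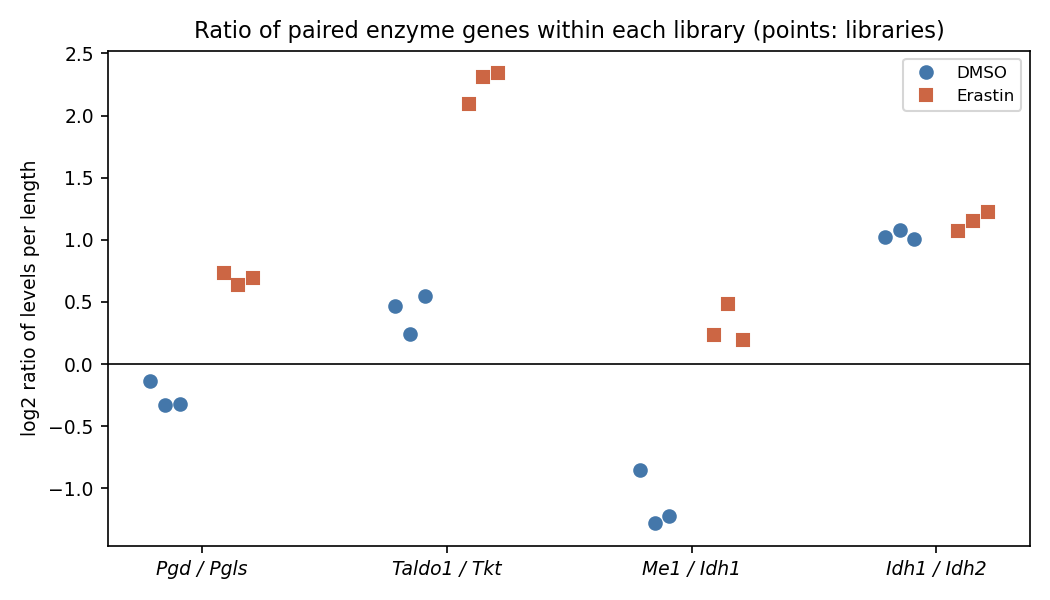
Log2 ratio of the levels per exon length of paired enzyme genes (vertical axis) in each library; blue circles are the 3 DMSO and orange squares the 3 erastin libraries. Taldo1 over Tkt moves from 0.42 to 2.25 on average, while Idh1 over Idh2 stays near 1.

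Levels of different genes were compared only per length and within a group, as TPM over all exons. In DMSO the order was Taldo1 (71 ± 7.32 TPM), Idh1 (63.2 ± 1.72), Tkt (52.9 ± 2.54), Pgls (41.6 ± 1.04), Pgd (34.8 ± 3.38), Idh2 (30.8 ± 1.04), Me1 (29.3 ± 4.14), Rpe (21.4 ± 4.6) and Rpia (2.37 ± 0.723; SD, n = 3 each). Neighbours whose library ranges met were Taldo1 and Idh1 (62.8 to 76.9 and 61.3 to 64.6 TPM) and Idh2 and Me1 (30.1 to 32 and 26.2 to 34 TPM). By mean, Taldo1 thus came first in DMSO, though not apart from Idh1. It was also first in the erastin libraries, where Pgd came next and then Me1, while Tkt stood at place 3 in DMSO and at place 7 with erastin. With erastin the library range of Tkt (29.4 to 38.4 TPM) met those of Pgls (34.1 to 40), Rpe (36.1 to 38.9) and Idh1 (33.5 to 44.6). The order depends on the gene length used. With the length of the longest transcript in place of all exons, Tkt came first in DMSO (108 TPM), before Taldo1 (102 TPM), Idh1 (68.4 TPM), Pgd (55.3 TPM), Pgls (52.5 TPM), Idh2 (40 TPM), Me1 (30.7 TPM), Rpe (22 TPM) and Rpia (3.13 TPM). By that length the erastin libraries had Taldo1 first (215 TPM), then Pgd (90.9 TPM) and Tkt (65.4 TPM), before Me1 (51.5 TPM).

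Of 13 further genes of the pentose phosphate pathway, its ribose outlets and its side reactions, 9 had enough counts to be tested. Of these Tigar was higher and H6pd lower (median log2 fold change 0.006), against 21.6% higher and 21.5% lower of all genes tested. H6pd, the endoplasmic reticulum enzyme that carries out the first oxidative steps there, stood at 182, 174 and 163 CPM in DMSO and at 75.1, 74.4 and 94.5 CPM with erastin. Its log2 fold change was -1.09 (edgeR adjusted p = 5.69e-07). Tigar, a phosphatase of fructose 2,6-bisphosphate that favours flow into the pathway, rose from 18.9, 16.2 and 12.8 CPM to 27, 24.5 and 27.5 CPM (log2 fold change 0.72, edgeR adjusted p = 0.00156). The other 7 did not pass and ranged from -0.26 to 0.61 in log2 fold change, among them Prps1 (0.47) and Prps2 (-0.26), which encode phosphoribosyl pyrophosphate synthetases. The transketolase-like genes Tktl1 and Tktl2, the ribokinase gene Rbks and Prps1l1 were too low to be tested, the first at 0 counts in all libraries.

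A list of 12 further genes, of NADPH sources, folate enzymes and NAD kinases, was tested whole. Not every folate enzyme in it makes NADPH. Of the 12 genes 5 were higher and 3 lower (median log2 fold change 0.205), against 21.6% and 21.5% of all genes tested. Of the 5 higher genes 4 encode folate enzymes, which make up much of the list (Mthfd1, Mthfd2, Mthfd2l, Mthfd1l, Aldh1l1 and Aldh1l2). Mthfd2l did not pass (log2 fold change 0.34, edgeR adjusted p = 0.281). Aldh1l2, the mitochondrial formyltetrahydrofolate dehydrogenase, which makes NADPH, rose from 124, 135 and 135 CPM to 400, 371 and 382 CPM (log2 fold change 1.55 with an SE of 0.0717; edgeR adjusted p = 1.21e-09). Its cytosolic counterpart Aldh1l1 moved the other way, from 27.3, 25.2 and 22.7 CPM to 4.66, 4.67 and 5.96 CPM (log2 fold change -2.29 with an SE of 0.173; edgeR adjusted p = 1.23e-07). The mitochondrial Mthfd2 and Mthfd1l and the cytosolic Mthfd1 also rose, with log2 fold changes of 0.87, 1.35 and 0.37 and edgeR adjusted p-values of 3.16e-07, 2.35e-06 and 0.0042. Nnt, the mitochondrial transhydrogenase, fell from 39.8 to 43.7 CPM in DMSO to 33.1 to 34.1 CPM with erastin (log2 fold change -0.31, edgeR adjusted p = 0.0211). Of the NAD kinases, which make NADP, the cytosolic Nadk fell (log2 fold change -0.25, edgeR adjusted p = 0.0216) and the mitochondrial Nadk2 rose (log2 fold change 0.58, edgeR adjusted p = 0.0342). These last calls were fragile: Nnt and Nadk did not pass in 4 and Nadk2 in 8 of 15 alternative analyses, with adjusted p-values up to 0.0909, 0.109 and 0.123.

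Around the isocitrate and malate steps, 7 of 12 partner genes were lower and 1 higher (median -0.334), against 21.5% and 21.6% of all genes tested. Genes of citrate export and cleavage fell, Slc25a1, the mitochondrial citrate carrier, and Acly, ATP citrate lyase, having log2 fold changes of -0.67 and -0.65 (edgeR adjusted p = 1.96e-05 and 3.4e-06). The dicarboxylate carrier Slc25a10 fell 2-fold (DMSO 17.4 ± 2.78, erastin 8.7 ± 1.74 CPM, SD, n = 3 each, with an edgeR adjusted p of 0.000881), and the oxoglutarate carrier Slc25a11 and citrate synthase, Cs, had log2 fold changes of -0.48 and -0.33 (edgeR adjusted p = 0.000334 and 0.00238). The NAD-dependent isocitrate dehydrogenase did not follow Idh1 and Idh2 as a unit, its subunit gene Idh3a being higher (0.30, edgeR adjusted p = 0.0326) and Idh3g lower (-0.43, edgeR adjusted p = 0.00513; both chosen after their values were seen). Idh3a did not pass in 6 of 15 alternatives, and Idh3b, also chosen after its values were seen, did not pass.

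Upstream, 15 of 18 genes of glucose 6-phosphate supply and use were tested, 4 higher and 3 lower (median 0.225). The share that passed was near the 43.1% of all genes tested. Slc2a1, the glucose transporter GLUT1, went from 121, 108 and 94.7 CPM to 452, 432 and 328 CPM (log2 fold change 1.90, edgeR adjusted p = 1.45e-08) and Hk2, hexokinase 2, from 102, 91.9 and 87.3 CPM to 331, 330 and 247 CPM (log2 fold change 1.69, edgeR adjusted p = 2.12e-08). Pfkfb3, whose product makes fructose 2,6-bisphosphate and so activates phosphofructokinase, rose 3.94-fold (log2 fold change 1.98, edgeR adjusted p = 1.07e-07). Of the phosphofructokinase genes, Pfkm was lower (-0.50, edgeR adjusted p = 0.00992; 0.0562 without DMSO replicate 2), Pfkp higher (0.25, edgeR adjusted p = 0.0434), and Pfkl did not pass (-0.12, edgeR adjusted p = 0.413). G6pc3, a glucose-6-phosphatase, was lower (-0.44, edgeR adjusted p = 0.00535), as was Pfkfb1 at a low level (2.06 ± 0.51 to 0.536 ± 0.201 CPM, SD, n = 3; with an edgeR adjusted p of 0.0132, or 0.0569 without erastin replicate 3). Pfkp, Pfkl and Pfkfb1 were chosen after their values were seen, and Pfkp did not pass in 11 of 15 alternatives.

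On the side of NADPH use, the enzymes of thiol and quinone reduction and those of lipid synthesis are given by the same counts. Of 16 antioxidant and quinone reductases 5 were higher and 2 lower (median 0.037), a share that passed near the 43.1% of all genes tested. Txnrd1, cytosolic thioredoxin reductase, rose from 230, 221 and 242 CPM to 914, 957 and 730 CPM (log2 fold change 1.91, edgeR adjusted p = 1.52e-09). Gsr, glutathione reductase, Nqo1, a quinone reductase, and Txnrd3 rose with log2 fold changes of 0.65, 0.78 and 0.94, and Akr1a1, an aldehyde reductase, fell with one of -0.37 (edgeR adjusted p = 0.00027, 1.22e-05, 0.00479 and 0.000441). Por, higher (log2 fold change 0.26), and Blvra, lower (-0.42), were chosen after their values were seen and did not pass in 6 and 9 of 15 alternatives (edgeR adjusted p = 0.0405 and 0.043 as reported). Of 15 NADPH-using enzymes of lipid and sterol synthesis 11 were lower and 1 higher (median -0.784), against 21.5% and 21.6% of all genes tested. Cyp51, Nsdhl, Msmo1 and Hsd17b7, of sterol synthesis, had log2 fold changes of -1.57, -1.53, -1.22 and -1.13, and Fasn, fatty acid synthase, one of -0.84 (each edgeR adjusted p at most 1.03e-06). The exception was Hsd17b12, a ketoacyl-CoA reductase of fatty acid elongation, which rose by 0.45 (edgeR adjusted p = 0.000216; chosen after its values were seen).

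**Figure D4:**
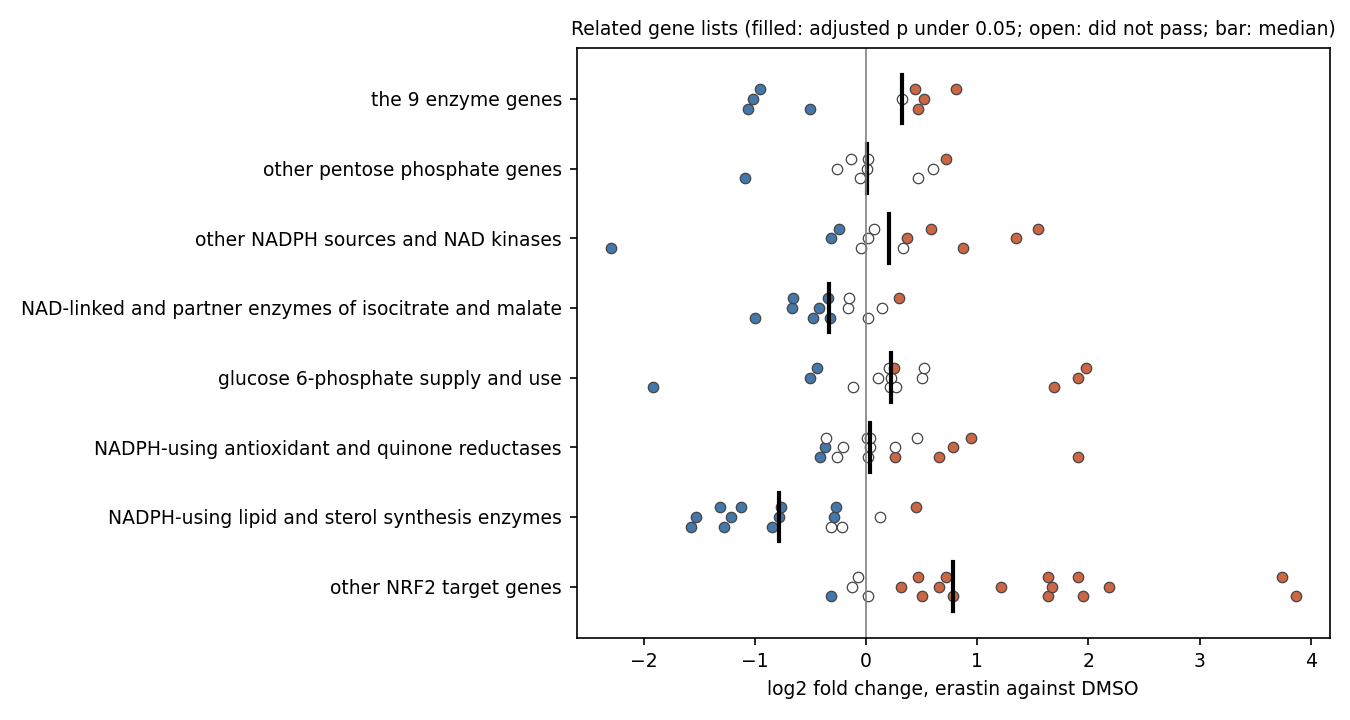
Log2 fold change (horizontal axis) of every tested gene of the 9 enzyme genes and of 7 related lists; filled points passed at an adjusted p under 0.05 (orange higher, blue lower), open points did not, and black bars are medians. The 9 enzyme genes lie on both sides of 0, 4 filled points on each side, and their median bar (0.323) stands at the open point of Rpia.

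Among 19 other NRF2 target genes, 4 of which are also among the reductases, 15 were higher and 1 lower with erastin. Their median log2 fold change was 0.784, and of all genes tested 21.6% were higher and 21.5% lower. Hmox1, heme oxygenase 1, Slc7a11, a subunit of the antiporter that erastin blocks, and the glutamate-cysteine ligase genes Gclm and Gclc rose with log2 fold changes of 3.86, 3.75, 1.96 and 1.63 (each edgeR adjusted p at most 7.73e-09). Ephx1, epoxide hydrolase 1, was the lower one (-0.31, edgeR adjusted p = 0.0056; chosen after its values were seen). Of the enzyme genes, Taldo1, Rpe, Me1 and Pgd moved in the direction of that list, by 0.81, 0.52, 0.47 and 0.44, and Tkt, Idh1, Idh2 and Pgls moved against it. Moving with or against the list does not tell which of these genes are NRF2 targets. Lists and enzyme set were measured in the same libraries and are shown side by side without a test of their difference.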

How the data were processed

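Total RNA was depleted of ribosomal RNA, fragmented and sequenced on an Ion Proton instrument, per the labels' protocols. The deposited table holds whole-number read counts per Ensembl gene, made by the authors with HTSeq 0.9.1, SAMtools and genome build mm10, per the submitters' processing notes. The aligner, annotation, strand setting and treatment of reads that match several genes are not given in the sources used here. All 6 columns were used, each assigned to its library by the number that its label carries (0 columns left out). Symbols came from GENCODE M21 (GRCm38), which matched 42462 of 43346 identifiers (98%). TPM was computed from counts and exon length.

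Counts were filtered (filterByExpr: minimum count 10 in at least 3 libraries, total 15), scaled with TMM factors and tested with edgeR 4.0.16 in R 4.3.3 (quasi-likelihood test, treatment as the only term, p-values adjusted over 14000 genes). A simulation with 13740 genes changed 200 of them by known folds. There the fit recovered 42% of genes changed 1.5-fold and 68% of those changed 2-fold, and called 0.0738% of unchanged genes. In the data 43.1% of genes passed, so the adjustment was stricter in the simulation. Its rates therefore do not carry over to the calls reported here. Alternatives, also with DESeq2 1.42.0 and mgcv 1.9.3, follow below. No pair of libraries in a group agreed within sampling noise (chi-square per degree of freedom 11 to 19.2). Copies were sought with blastn at 90% identity over 150 bases. The genes and lists were chosen with earlier results of these data known. Some genes of the set and lists are not reported here and enter no count of them. By rule, the text could name the 9 genes, any gene of the first 2 related lists and the 5 genes with the smallest p-value of each other list; genes outside it are marked, apart from cell type markers and overlapping or copied genes.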

Additional observations from a re-analysis of the deposited data

How the results depend on the processing

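The counts of the 9 enzyme genes held over 15 alternatives (other scalings, filters, the replicate block, DESeq2, an offset for GC content and length with or without that block, and leaving out each library), at 3 to 5 higher and 4 lower, and 4802 to 6104 genes passed in all. The 9 log2 fold changes kept their signs in all 15. Of the 9, Rpe and Rpia changed side. Rpe was 0.283 (edgeR adjusted p = 0.0788) with the offset and 0.282 (0.0504) with the offset and block. In their deviations from the group mean, equally numbered libraries were almost uncorrelated (mean 0.0128). The mean for others, -0.00628, follows from taking deviations within groups of 3 and adds nothing. Whether equal numbers were handled together is not settled by these values. With the replicate block 5882 genes passed and no enzyme gene changed its call.

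In the related lists small counts moved. Counts that changed by more than 1.5-fold are listed here, and most smaller changes are not. Among the latter, genes of glucose 6-phosphate supply and use higher, reported as 4, ran from 3 to 6 over the alternatives. Lipid and sterol synthesis enzymes lower, reported as 11, ran from 10 to 13. Other pentose phosphate genes higher, reported as 1, were 3 with total counts only, 3 without a filter, 2 with the replicate block, 2 with DESeq2, 2 with offset and block, and 1 to 3 with 1 library left out; those lower, 1, were 2 with the offset, 2 with offset and block, and 1 to 2 with 1 library left out. Genes of the list of NADPH sources, folate enzymes and NAD kinases lower, 3, were 1 with total counts only and 1 to 3 with 1 library left out. The isocitrate and malate partners higher, 1, were 0 with upper-quartile factors, 0 with the offset, 0 with offset and block, and 0 to 1 with 1 library left out. The reductases lower, 2, were 3 with upper-quartile factors, 1 with total counts only, 1 without a filter, 1 with the replicate block, and 1 with any library left out. Me2, reported at -0.043, was 0.0203 with total counts only; Me3, at 0.0746, was -0.0751 with the offset and -0.0729 with offset and block; with 1 library left out Me2 ran from -0.122 to 0.0123 and Me3 from -0.0696 to 0.232, turning sign without erastin replicate 3 (both; Me3 -0.00515) and, for Me3, without DMSO replicate 2. The causes were not tested. Upper-quartile and total scaling moved the median of all genes to -0.0552 and 0.0646. Of the 9 genes Rpia had the fewest reads, 91 to 225; the part of depth in its result was not tested.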
